A study of Mus musculus with 6 samples.

Results

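Ribosome biogenesis was followed through 42 genes that encode nucleolar scaffold proteins, small nucleolar ribonucleoprotein (snoRNP) subunits, RNA polymerase I subunits and assembly factors of both ribosomal subunits. They were chosen by symbol, each matched 1 of the 55335 gene identifiers in the count table, and all 42 were among the 19783 genes tested. The tumor group held 3 libraries of CD8+ T cells sorted from B16-GP33-41 melanomas (P14 TIL), and the spleen group held 3 libraries of the same kind of cells sorted from spleens of the tumor-bearing mice (P14 Sp). Every library came from donor cells labelled P14 TCR transgenic, strain C57BL/6 and 10 weeks of age, transferred on day 11 after tumor implantation. P14 cells carry a transgenic T cell receptor for the GP33-41 peptide, which the B16 cells of this model express, so both groups are of 1 receptor specificity and a model of that receptor only. The labels do not say whether a library holds cells of 1 mouse or of several. The comparison asks how transcripts of 1 antigen-specific population differ between the tumor and the spleen.

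Ribosome production begins in the nucleolus, where RNA polymerase I transcribes the ribosomal DNA into a long precursor. Guide RNAs carried by snoRNPs direct its chemical modification, a large particle called the small subunit (SSU) processome cleaves and folds the part that will form the small subunit, and a separate set of factors assembles the large subunit. Dividing T cells are known to raise this pathway on activation, in part through the transcription factor MYC.

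Transcripts of 41 of the 42 genes rose in tumor P14 cells and 0 fell, while Bysl did not pass the test (quasi-likelihood test of edgeR, p adjusted by Benjamini-Hochberg over all genes, threshold 0.05). At an unadjusted p below 0.05 edgeR also gave 0 lower genes of the 42, and so did DESeq2 and limma-voom after adjustment. With upper quartile scaling or library totals, however, Bysl passed as lower. Over all genes tested, the edgeR rule with an adjusted p below 0.05 called 34.8% higher and 35.9% lower in the reported fit. At least a 1.5-fold rise was found for 39 of the 42 genes, against 21.2% of all genes, and at least a 2-fold rise for 21, against 9.96%. The median log2 fold change, tumor over spleen, was 0.98 over the 42 genes and -0.02 over all genes tested. In 40 of the 42 genes the lowest tumor library stood above the highest spleen library, which held for 35.1% of all genes. The counts of the 42 genes together made up 0.568% to 0.586% of all counts in the tumor libraries, against 0.281% to 0.283% in the spleen libraries, so the summed level was 2.03-fold higher in tumor.

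**Figure D1:**
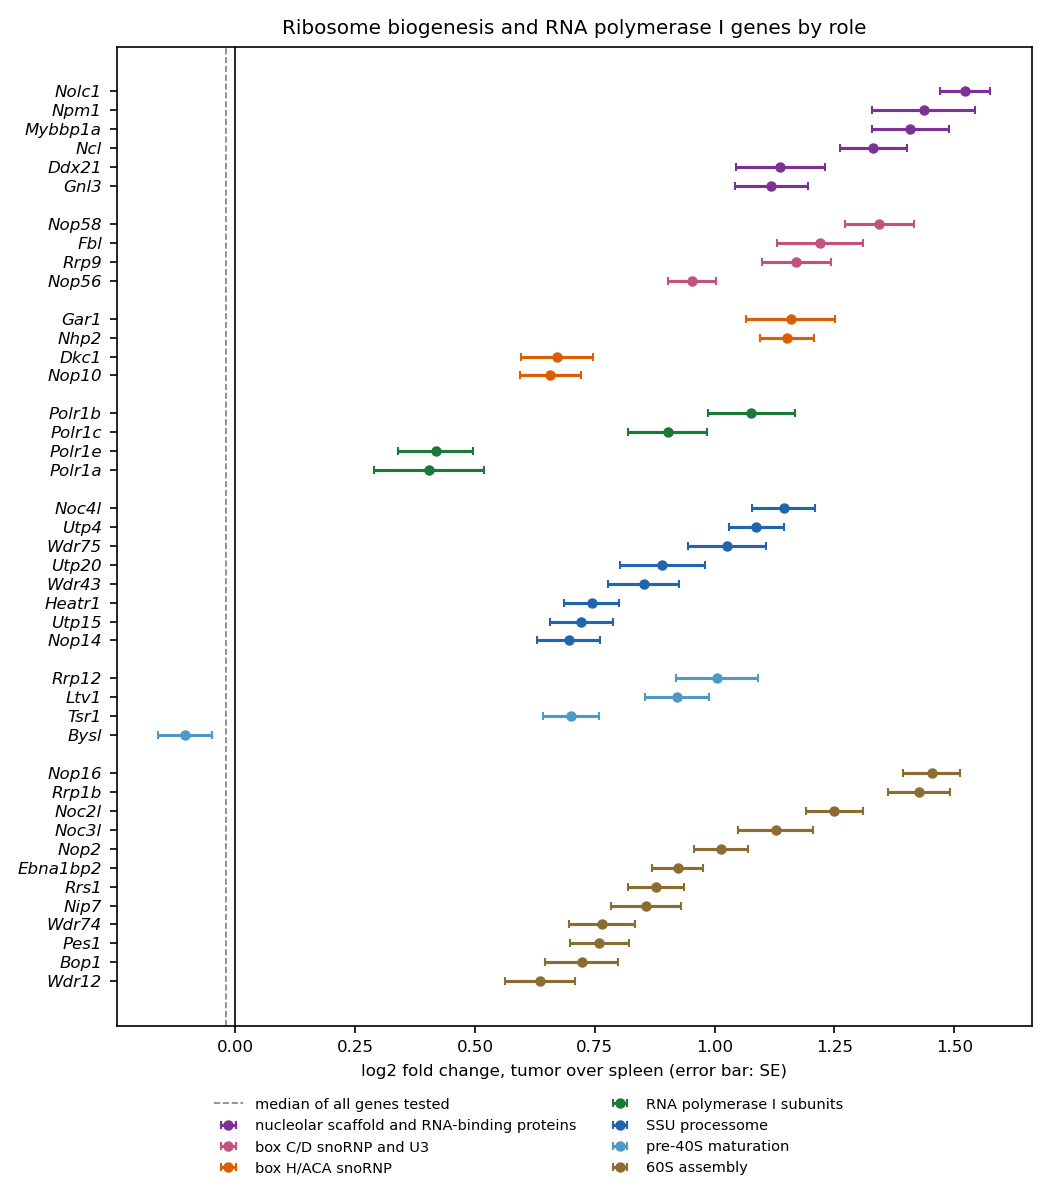
Log2 fold change, tumor over spleen, of the 42 genes grouped by role, with standard errors derived from the edgeR F statistic. Nolc1 has the largest value (1.52), Polr1a and Polr1e have the smallest of the genes that rose (0.40 and 0.42), and Bysl lies at -0.10.

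Library totals were between 35095261 and 38263483 counts. Levels are given as CPM, counts scaled to a library total of 1000000. The T cell receptor gene Cd3e was at 594 ± 7.40 CPM for tumor, against 634 ± 4.66 CPM for spleen (SD, n = 3 each). Of the 10 CD8 T cell markers, 3 were higher in tumor (Cd8a, Zap70 and Cd5) and 3 lower (Cd8b1, Lck and Cd2), and their sum was 4974 to 5187 CPM in tumor, against 5501 to 5582 CPM in spleen. B cell markers (10 of 10 lower, Cr2 at 0 in tumor) summed to 10.7 to 12.8 CPM in tumor, against 548 to 565 CPM in spleen. Macrophage and monocyte markers (10 of 10 lower) summed to 40.5 to 43.0 CPM in tumor, against 259 to 274 CPM in spleen. Dendritic cell and MHC class II markers (10 of 10 lower, Clec9a and Siglech at 0 in tumor) summed to 80.5 to 86.5 CPM in tumor, against 1824 to 1867 CPM in spleen. Erythroid and neutrophil markers summed to 131 to 144 CPM in tumor, against 122 to 125 CPM in spleen, with 3 of 7 tested higher (Hba-a1, Hbb-bs and Alas2) and 4 lower (among them Elane, at 0 in tumor). Melanoma markers summed to 21.6 to 23.1 CPM in tumor, against 32.9 to 33.6 CPM in spleen; of the 4 tested, Dct was higher and Pmel lower, while Mlana, Tyr, Tyrp1 and Sox10 did not reach the count filter. In such bulk libraries, fewer cells of a type and less RNA per cell cannot be told apart, and the part of other cells in the rises described here was not tested. Tumor replicate 3 stood further from the other tumor libraries than these did from each other: the chi-square per degree of freedom was 32.2 and 19.2 against replicates 1 and 2, and 8.83 between those. Between spleen libraries the same measure was 2.19, 2.37 and 3.5. Without tumor replicate 3, 41 of the 42 genes still passed as higher and 37 were at least 1.5-fold higher. Codes in the sample descriptions end alike within a tissue and differently between the tissues, so if they mark a batch, it cannot be told apart from tissue.

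The nucleolar scaffold and RNA-binding group rose in all 6 of its genes, by a median of 1.37 on the log2 scale, the largest median of the 7 role groups. Nolc1, a chaperone of snoRNPs on mm10 chromosome 19, was at 213, 219.6 and 229 CPM in tumor, against 79.0, 77.3 and 78.2 CPM in spleen. The tissues were far apart and the tumor libraries close together, with a log2 fold change of 1.52 (SE 0.05, edgeR adjusted p = 6.9e-10), the largest of the 42. Nucleolin, encoded by Ncl (ENSMUSG00000026234.12, mm10 chromosome 1, 86344719 to 86359400), is an abundant protein of pre-rRNA transcription and folding and took the largest share of counts among the 42 genes. Its level was 767, 781 and 937 CPM in tumor, against 331, 342 and 334 CPM in spleen. All tumor libraries were above all spleen libraries, with tumor replicate 3 the highest (2.52-fold, log2 1.33, SE 0.07, adjusted p = 2.0e-08 by edgeR).

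Npm1, which encodes the nucleolar chaperone nucleophosmin (ENSMUSG00000057113.13, mm10 chromosome 11, 33152287 to 33163206), was at 279.7, 309.9 and 403 CPM in tumor, against 119, 122 and 132 CPM in spleen. The tumor libraries spread more widely than for any other of the 42 genes, with a coefficient of variation of 19.4% in tumor and 5.62% in spleen, but did not reach the spleen values (log2 1.44, SE 0.11). Mybbp1a, a nucleolar protein that binds transcription factors, was at 479.6, 462 and 389.8 CPM in tumor, against 171, 169.7 and 172 CPM in spleen. Here tumor replicate 3 was the lowest tumor library, the reverse of Ncl and Npm1, and all tumor libraries were again above spleen (log2 1.41, SE 0.08). The helicase gene Ddx21 was at 146, 153 and 196 CPM in tumor, against 75.8, 73.8 and 79.4 CPM in spleen, and the GTPase gene Gnl3, which encodes nucleostemin, at 39.2, 42.7 and 46.9 CPM in tumor, against 20.4, 20.8 and 19.2 CPM in spleen. Their log2 fold changes were 1.14 and 1.12, and replicate 3 was the highest tumor library in each.

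Core proteins of the box C/D snoRNPs, which methylate the ribose of pre-rRNA, and the U3 protein Rrp9 rose in 4 of 4 genes. Fbl, the methyltransferase fibrillarin, was at 210.0, 197 and 164 CPM in tumor, against 81.5, 85.8 and 83.2 CPM in spleen. Tumor replicate 3 was the lowest tumor library and lay well above every spleen library (log2 1.22, SE 0.09). The paired scaffold proteins Nop56 and Nop58 sit beside fibrillarin in the same particle. Nop58 was at 106, 126 and 128 CPM in tumor, against 50.0, 48.2 and 46.4 CPM in spleen, and Nop56 at 215, 220.2 and 230.0 CPM in tumor, against 118, 116 and 116 CPM in spleen. Both rose without overlap, Nop58 by 1.34 (SE 0.07) and Nop56 by 0.95 (SE 0.05) on the log2 scale. Rrp9, a protein of the U3 snoRNP that guides early cleavages of pre-rRNA, averaged 93.0 ± 6.11 CPM for tumor, against 42.2 ± 1.91 CPM for spleen (SD, n = 3 each), a rise of 1.17 (SE 0.07) on the log2 scale.

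All 4 genes of the box H/ACA snoRNPs, which turn uridine into pseudouridine, rose, and their fold changes formed a higher and a lower pair. Gar1 and Nhp2 had log2 fold changes of 1.16 (SE 0.09) and 1.15 (SE 0.06). Nhp2 was at 130.1, 135 and 129 CPM in tumor, against 59.4, 59.0 and 62.5 CPM in spleen, and Gar1 at 79.1, 77.5 and 62.6 CPM in tumor, against 33.6, 32.6 and 34.0 CPM in spleen. Dkc1, the pseudouridine synthase dyskerin, and Nop10 had log2 fold changes of 0.67 (SE 0.08) and 0.66 (SE 0.06). Dkc1 was at 99.1, 99.1 and 122 CPM in tumor, against 68.9, 67.4 and 68.6 CPM in spleen, and Nop10 at 95.8, 94.0 and 99.2 CPM in tumor, against 64.8, 57.4 and 64.7 CPM in spleen. The tumor libraries lay above the spleen libraries in all 4 genes, and the difference between the pairs was not tested.

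RNA polymerase I subunit genes rose in 4 of 4, but only Polr1b and Polr1c passed 1.5-fold. Polr1b, the second-largest subunit, was at 74.5, 72.7 and 59.3 CPM in tumor, against 33.7, 32.7 and 33.6 CPM in spleen. No tumor library reached the spleen range, although replicate 3 was the lowest of the tumor libraries (log2 1.08, SE 0.09, edgeR adjusted p = 9.1e-07). Polr1a, the largest and catalytic subunit (ENSMUSG00000049553.11, mm10 chromosome 6, 71909053 to 71984935), was at 80.7, 82.5 and 59.0 CPM in tumor, against 54.6, 59.0 and 58.1 CPM in spleen. Tumor replicates 1 and 2 were above spleen, and replicate 3 fell inside the spleen range, so the tissues overlapped (log2 0.40, SE 0.11, edgeR adjusted p = 0.0081). With 1 library left out at a time, the log2 fold change of Polr1a lay between 0.32 (without tumor replicate 2, edgeR adjusted p = 0.045) and 0.56 (without tumor replicate 3, edgeR adjusted p = 5.0e-07). With the spleen libraries added up as 1 sample, which leaves that tissue without replicates, it was 0.39 and did not pass (edgeR adjusted p = 0.11, where all alternatives together gave 8.0e-08 to 0.11). Polr1e, a subunit particular to polymerase I, was at 29.0, 31.1 and 28.7 CPM in tumor, against 21.6, 21.6 and 24.5 CPM in spleen, with no overlap (log2 0.42, SE 0.08). Polr1c, which polymerases I and III share, averaged 40.4 ± 3.19 CPM for tumor, against 22.05 ± 1.15 CPM for spleen (SD, n = 3 each) and rose by 0.90 (SE 0.08).

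Of the other polymerase I subunits and initiation factors, 6 of 12 rose and 2 fell, with a median log2 fold change of 0.21. Of all genes tested, 34.8% were higher and 35.9% lower. Cd3eap (0.93) and Polr1d (0.62), both subunits, rose the most, and Twistnb (0.23) rose less. Znrd1, the remaining subunit of the list, was at 30.2 ± 2.68 CPM for tumor, against 27.4 ± 0.995 CPM for spleen (SD, n = 3 each) and did not pass. Rrn3, which recruits the polymerase to its promoter, rose by 0.50, Tcof1, the treacle gene, by 0.37, and Ubtf, which encodes the promoter factor UBF, by 0.20. Taf1c, a subunit of the selectivity factor SL1, fell by 0.45 and the termination factor gene Ttf1 fell by 0.46, both on the log2 scale. Taf1a, Taf1b and Taf1d did not pass.

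Subunits of the other polymerases gave a mixed picture. The 5 subunits that the polymerases share had a median of 0.69, and 4 rose, Polr2f (0.91), Polr2h (0.73), Polr2e (0.69) and Polr2l (0.53); Polr2k did not pass. Polymerase II-specific genes had 4 of 8 higher (Polr2c, Polr2d, Polr2i and Polr2g) and 1 lower (Polr2a, the catalytic subunit, -0.20), with a median of 0.12. Polymerase III-specific genes had 5 of 11 higher and 4 lower, with a median of -0.08. Such counts stand beside shares of 34.8% higher and 35.9% lower over all genes tested. Among the polymerase III-specific genes that rose were Polr3d (0.71), Polr3k (0.58), Polr3e (0.38) and Polr3g (0.32). Polr3gl, the paralog of Polr3g, fell by 0.82 on the log2 scale, and Polr3b (-0.35), Polr3c (-0.29) and Crcp (-0.18) fell less. The difference between polymerases was not tested.

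**Figure D2:**
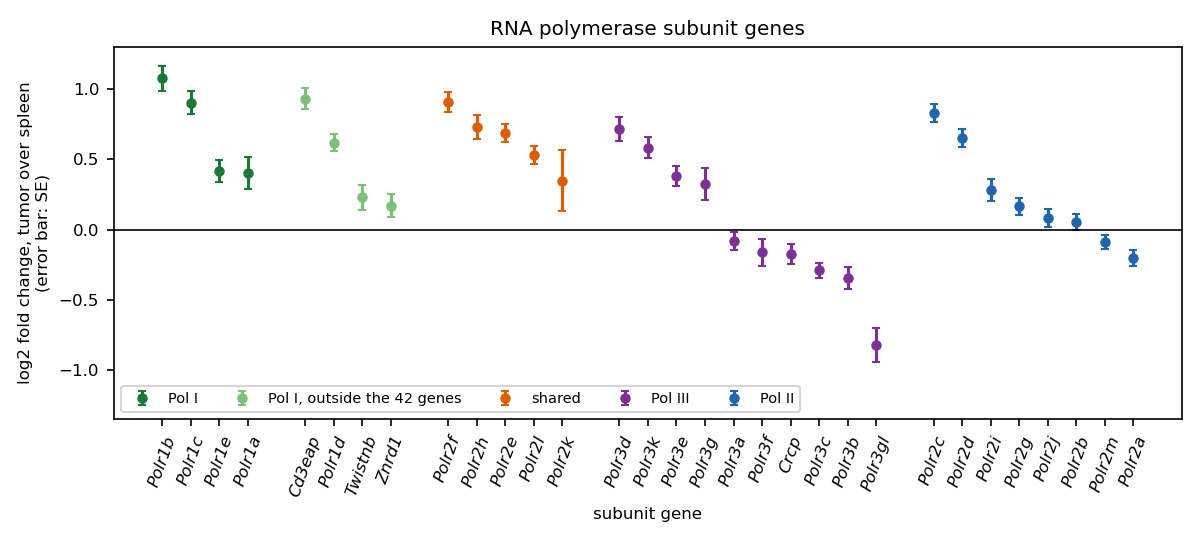
Log2 fold change, tumor over spleen, of RNA polymerase subunit genes with standard errors, grouped by the enzyme they belong to, with 1 polymerase III gene not drawn. Polymerase I and shared subunits lie above 0, while polymerase II and III subunits lie on both sides, between Polr2c (0.83) and Polr3gl (-0.82).

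Genes of the SSU processome rose in 8 of 8, between 0.70 for Nop14 and 1.14 for Noc4l on the log2 scale. Noc4l and Nop14 encode binding partners in the particle, as known from yeast. Noc4l was at 124, 125 and 116 CPM in tumor, against 52.4, 57.9 and 57.8 CPM in spleen, and Nop14 at 38.4, 39.6 and 38.1 CPM in tumor, against 25.3, 24.5 and 23.3 CPM in spleen. Both rose without overlap and with tumor replicate 3 the lowest tumor library. Utp4, Utp15, Wdr43, Wdr75 and Heatr1 belong to the early-binding module that also acts in ribosomal DNA transcription. Utp4 was at 94.3, 91.0 and 98.5 CPM in tumor, against 45.9, 44.3 and 46.1 CPM in spleen, and Heatr1 was at 155, 156 and 145 CPM in tumor, against 94.0, 92.8 and 91.1 CPM in spleen. The log2 fold changes in the module were 1.09 for Utp4, 1.03 for Wdr75, 0.85 for Wdr43, 0.74 for Heatr1 and 0.72 for Utp15. Wdr75 averaged 53.5 ± 6.69 CPM for tumor, against 26.8 ± 0.437 CPM for spleen (SD, n = 3 each), Wdr43 averaged 143 ± 16.8 CPM for tumor, against 81.0 ± 2.503 CPM for spleen (SD, n = 3 each), and Utp15 averaged 72.8 ± 5.21 CPM for tumor, against 45.03 ± 1.79 CPM for spleen (SD, n = 3 each). Utp20, a very large scaffold protein, was at 56.6, 51.6 and 47.3 CPM in tumor, against 29.8, 29.8 and 26.0 CPM in spleen and rose by 0.89. In none of these genes did the tissues overlap.

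Late small subunit factors rose in 3 of 4. Rrp12 and Ltv1, which act in export of the small subunit precursor, rose by 1.01 and 0.92 on the log2 scale, and the GTPase-like gene Tsr1 by 0.70. Rrp12 was at 105, 101 and 85.3 CPM in tumor, against 48.1, 51.6 and 48.4 CPM in spleen. Ltv1 averaged 60.1 ± 4.36 CPM for tumor, against 32.4 ± 0.869 CPM for spleen (SD, n = 3 each), and Tsr1 averaged 93.4 ± 5.81 CPM for tumor, against 58.7 ± 0.597 CPM for spleen (SD, n = 3 each). Bysl, which encodes bystin (ENSMUSG00000023988.8, mm10 chromosome 17, 47599331 to 47611492), was at 117, 120.2 and 111 CPM in tumor, against 129, 128 and 126 CPM in spleen. Every tumor library was below every spleen library, yet the difference did not pass (log2 -0.10, SE 0.06, edgeR adjusted p = 0.12). With upper quartile scaling or library totals in place of TMM scaling Bysl passed as lower (-0.16 and -0.13, edgeR adjusted p = 0.026 and 0.038), while its adjusted p over all alternatives lay between 0.026 and 0.41. In GENCODE M21, 361 exon bases of Bysl lie opposite Ccnd3, the cyclin D3 gene, which was at 297, 297 and 273 CPM in tumor, against 508, 501 and 498 CPM in spleen. The labels name a stranded library kit, but not whether reads were counted by strand, and the part of Ccnd3 reads in the Bysl counts was not tested.

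Large subunit assembly genes rose in 12 of 12. Nop16 was at 63.1, 65.5 and 67.0 CPM in tumor, against 24.9, 23.8 and 24.2 CPM in spleen. This nucleolar protein had the second-largest log2 fold change of the 42 genes (1.45, SE 0.06, edgeR adjusted p = 2.9e-09), and its tumor libraries were close together. Rrp1b, a nucleolar protein related to the yeast factor Rrp1, was at 85.3, 79.7 and 79.9 CPM in tumor, against 32.3, 30.1 and 30.6 CPM in spleen. It rose by 1.43, and its paralog Rrp1, outside the 42 genes, by 0.58. Noc2l and Noc3l encode partners that escort the large subunit precursor, as known from yeast. Noc2l was at 404, 389 and 365 CPM in tumor, against 165, 168 and 165 CPM in spleen, the highest tumor level per kilobase of exon among the 42 genes (135 CPM per kilobase in tumor and 57.8 in spleen). Noc3l was at 29.7, 31.8 and 32.0 CPM in tumor, against 15.5, 15.0 and 13.2 CPM in spleen, far lower per kilobase (7.83 CPM per kilobase in tumor and 3.66 in spleen). Both rose without overlap, by 1.25 and 1.13 on the log2 scale. The length used was that of all annotated exons of a gene merged, 2867 bases for Noc2l and 10188 for Ncl. Ranks per kilobase therefore depend on the annotation. Npm1 came next to Noc2l in tumor at 124 CPM per kilobase, without counts assigned to pseudogene models that resemble it.

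Pes1, Bop1 and Wdr12 form the PeBoW complex, which is needed for processing of the large subunit RNA. Pes1 was at 128, 129 and 118 CPM in tumor, against 74.2, 75.1 and 76.6 CPM in spleen, and Bop1 at 202, 184 and 167 CPM in tumor, against 114, 117 and 112 CPM in spleen. Their log2 fold changes were 0.76 (SE 0.06) and 0.72 (SE 0.08), and that of Wdr12 was 0.64 (SE 0.07), with no overlap between tissues in any of them. Wdr12 averaged 39.7 ± 3.52 CPM for tumor, against 26.0 ± 0.469 CPM for spleen (SD, n = 3 each). Nop2, an rRNA cytosine methyltransferase, was at 139, 135 and 132 CPM in tumor, against 69.0, 67.6 and 69.2 CPM in spleen, a log2 fold change of 1.01. Rrs1, which takes part in loading the 5S ribonucleoprotein in yeast, was at 77.6, 77.2 and 77.5 CPM in tumor, against 43.1, 44.5 and 41.4 CPM in spleen. Its tumor libraries were the closest together of the 42 genes, with a coefficient of variation of 0.301% in tumor and 3.56% in spleen. Its log2 fold change was 0.88. Ebna1bp2, the counterpart of yeast Ebp2, averaged 133 ± 1.62 CPM for tumor, against 71.8 ± 1.74 CPM for spleen (SD, n = 3 each) and rose by 0.92. Nip7 averaged 62.5 ± 5.16 CPM for tumor, against 35.2 ± 1.57 CPM for spleen (SD, n = 3 each), and Wdr74 averaged 55.1 ± 1.31 CPM for tumor, against 33.1 ± 2.34 CPM for spleen (SD, n = 3 each), rises of 0.86 and 0.77 on the log2 scale.

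**Figure D3:**
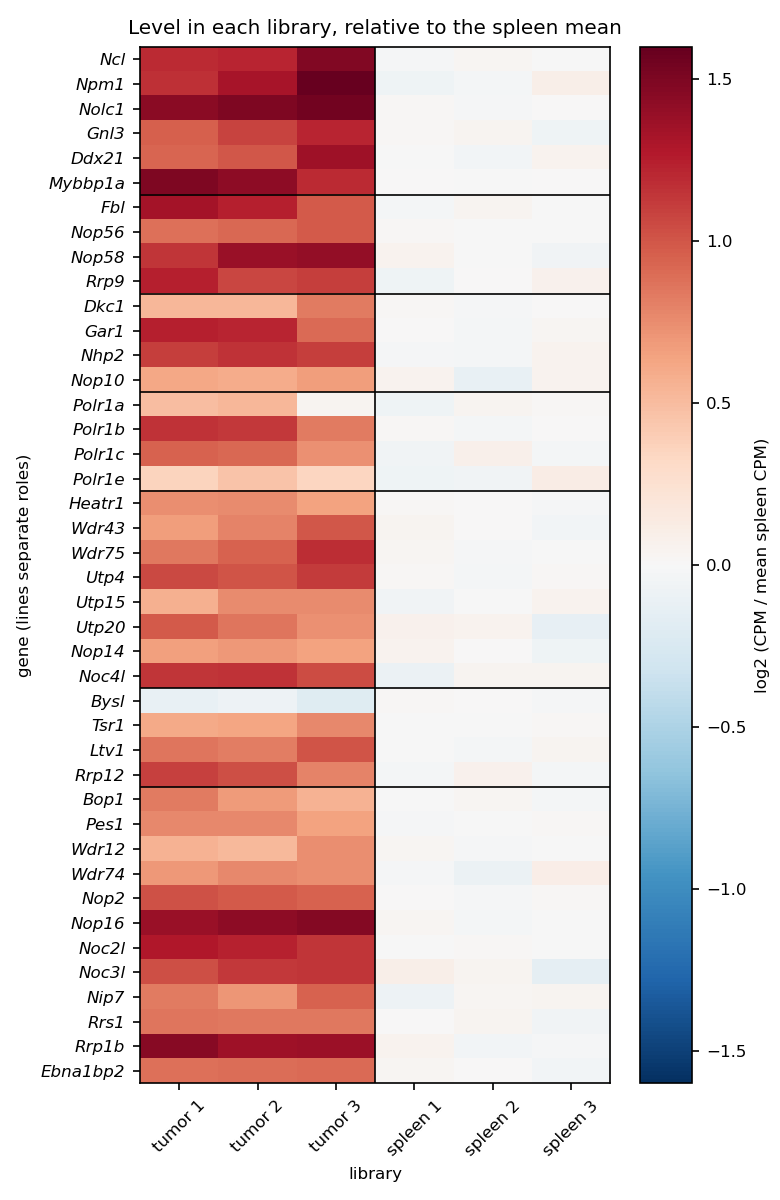
Level of each of the 42 genes in each library, as log2 of CPM over the mean spleen CPM, with genes ordered by role. The tumor columns are red for all genes but Bysl, which is pale blue, and Polr1a is near white in tumor replicate 3, at 59.0 CPM.

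Between tumor libraries the 42 genes did not move as a block. Tumor replicate 3 was the highest tumor library for 19 genes and the lowest for 18. It was thus at an extreme for 88.1% of the 42 genes, and for 82.1% of the 10524 genes tested that averaged at least 10 CPM in tumor. Ncl, Npm1, Ddx21, Nop58 and Wdr75 were among those highest in replicate 3, and Mybbp1a, Fbl, Gar1, Polr1a, Polr1b and Rrp12 among those lowest in it. The median coefficient of variation over the 42 genes was 6.86% in tumor and 2.89% in spleen, against 6.99% in tumor and 3.30% in spleen for the 10524 genes.

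Beyond the 42 genes, 92 of 120 other genes of the pathway rose and 7 fell, with a median log2 fold change of 0.40. These genes were listed by function (polymerase I, small subunit, large subunit and exosome). Their counts, and those of each list, stand beside shares of 34.8% higher and 35.9% lower over all genes tested. Small subunit factors had 34 of 42 higher and 3 lower, with a median of 0.43. Tbl3 (1.10), a processome protein, and Snu13 (1.03), which binds the box C/D guide RNA, had the smallest p-values of these, while Riok3, a kinase of late maturation, fell by 0.39, Rrp36 fell by 0.19 and Ngdn fell by 0.16 on the log2 scale. Large subunit factors had 40 of 51 higher and 1 lower, with a median of 0.58. Mrto4, a factor related to the ribosomal stalk protein, was at 64.3, 67.1 and 63.8 CPM in tumor, against 20.2, 22.5 and 22.9 CPM in spleen, and Rrp15 was at 49.3, 48.4 and 49.2 CPM in tumor, against 18.4, 19.7 and 18.9 CPM in spleen. The log2 fold changes were 1.603 (SE 0.07) and 1.40 (SE 0.06), and Sbds, which acts in the release of Eif6 from the new subunit, fell by 0.41. Exosome and decay genes had 12 of 15 higher and 1 lower: Exosc2 (0.86) and the nuclease gene Dis3 (1.08) rose, and the exonuclease gene Xrn2 was at 122 ± 22.9 CPM for tumor, against 200.1 ± 1.92 CPM for spleen (SD, n = 3 each) and fell by 0.69 on the log2 scale. The median of each of these lists was below that of the 42 genes, a difference that was not tested.

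**Figure D4:**
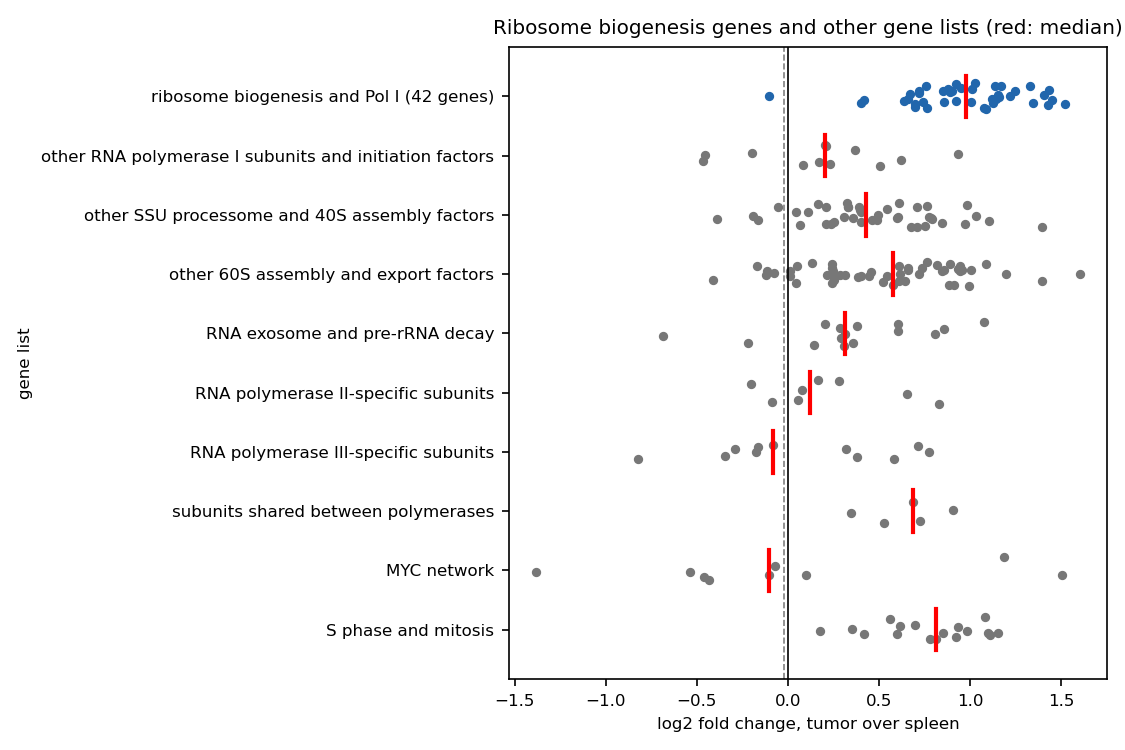
Log2 fold change, tumor over spleen, of each gene in the 42-gene set and in 9 other lists, with the median of each list in red and that of all genes tested as a dashed line. The 42 genes have a median of 0.98, and the lists of other small and large subunit factors have medians of 0.43 and 0.58.

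Myc, which encodes the transcription factor MYC, was at 370.4, 357 and 338 CPM in tumor, against 159, 163 and 155 CPM in spleen. The tissues did not overlap, and the log2 fold change was 1.19 (SE 0.06, edgeR adjusted p = 1.2e-08). Among other genes of the MYC network, Mxi1 rose by 1.502 on the log2 scale. Mxd4 fell by 1.38, Mga fell by 0.54, Mxd1 fell by 0.46 and Mnt fell by 0.43 on that scale. In all, 2 of 9 tested genes of the network were higher and 4 lower, and Max, Mxd3 and Mlx did not pass. The shares over all genes tested were 34.8% higher and 35.9% lower, so these counts do not set the network apart. All 17 genes of S phase and mitosis rose in the same libraries, with a median of 0.81 and a range from 0.17 to 1.16 on the log2 scale. Mcm6 (1.10), a subunit of the replicative helicase, and Rrm1 (1.11), a subunit of ribonucleotide reductase, were near the upper end. The part of the cell cycle in the rise of the ribosome biogenesis genes was not tested.

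The letters CACGTG, the E-box that MYC and MAX bind, were searched in RefSeq promoter windows of 300 bases (GRCm38.p6, 250 bases before to 50 after the annotated start). The motif reads the same on both strands. A window was found for 37 of the 42 genes (Bop1, Fbl, Npm1, Rrp12 and Rrs1 had none), and 8 of these genes (21.6%) held the letters, against 8.09% of all 27018 genes with a window and 11.5% of the 10566 tested genes with one. The 8 genes were Ltv1, Mybbp1a, Nop2, Pes1, Tsr1, Utp20, Utp4 and Wdr43. In 7 of the 8 the motif began at or after the annotated start, which was so for 13.9% of the 2589 matches in all windows; Nop2 was the exception, with the motif 60 bases before the start. The median log2 fold change was 0.91 for the 8 genes with the letters and 1.03 for the 29 without. Matches describe letters and not binding. The windows of Mybbp1a and Nop2, the strongest riser with a match and the match upstream of the start, are printed with those of Nolc1, the largest rise, and Bysl, the gene that did not pass, neither of which holds the letters. Sequences run 5′ to 3′ on the gene's strand, and capitals mark CACGTG.
Mybbp1a (chr11:72441077-72441376, plus strand): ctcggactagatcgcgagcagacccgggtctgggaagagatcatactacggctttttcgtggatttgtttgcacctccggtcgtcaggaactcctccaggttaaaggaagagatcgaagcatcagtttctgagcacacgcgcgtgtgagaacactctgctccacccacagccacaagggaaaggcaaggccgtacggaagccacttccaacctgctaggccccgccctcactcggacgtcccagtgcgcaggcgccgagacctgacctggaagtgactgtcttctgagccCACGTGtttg
Nop2 (chr6:125131633-125131932, plus strand): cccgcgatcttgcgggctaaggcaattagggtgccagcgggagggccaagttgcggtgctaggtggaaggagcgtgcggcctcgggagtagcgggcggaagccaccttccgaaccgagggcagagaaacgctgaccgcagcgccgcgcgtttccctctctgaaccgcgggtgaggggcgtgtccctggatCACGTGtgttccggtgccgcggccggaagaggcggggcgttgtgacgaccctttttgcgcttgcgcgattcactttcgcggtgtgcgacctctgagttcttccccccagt
Nolc1 (chr19:46075597-46075896, plus strand): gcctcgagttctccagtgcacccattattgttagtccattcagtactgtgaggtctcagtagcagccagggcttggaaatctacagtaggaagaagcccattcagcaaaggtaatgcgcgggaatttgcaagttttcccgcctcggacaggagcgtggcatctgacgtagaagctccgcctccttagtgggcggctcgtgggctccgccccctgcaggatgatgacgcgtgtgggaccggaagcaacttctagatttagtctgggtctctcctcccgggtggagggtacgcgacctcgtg
Bysl (chr17:47611443-47611742, minus strand): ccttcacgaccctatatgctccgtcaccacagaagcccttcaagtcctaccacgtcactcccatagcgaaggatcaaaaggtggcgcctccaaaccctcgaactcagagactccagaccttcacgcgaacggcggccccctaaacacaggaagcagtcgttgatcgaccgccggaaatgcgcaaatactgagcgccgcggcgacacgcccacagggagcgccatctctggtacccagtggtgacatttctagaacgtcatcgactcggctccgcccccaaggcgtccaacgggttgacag

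Several of the 42 genes share sequence with pseudogenes, and the reads were 50 bases long. For Npm1, 24.3% of the 50-base windows of its annotated transcripts also occurred in a transcript of a gene model elsewhere. The share was 20.4% for Pes1, 19.7% for Fbl and 16.5% for Nop56, between 5.23% and 6.30% for Nip7, Wdr12 and Rrs1, and below 5% for the other 35 genes, of which 20 shared no window. Of those 35 genes, 34 rose, with a median log2 fold change of 1.01 over the 35. Pseudogene models that resemble a gene by at least 90% over at least 200 bases were found for 14 of the 42 genes, 34 models in all. The 10 models that resemble Npm1 held in sum 891 CPM in tumor, against 317 CPM in spleen, while Npm1 itself held 331 CPM in tumor, against 125 CPM in spleen, and the ratio of tumor to spleen was 2.81, against 2.66 for Npm1. For Fbl, the 2 pseudogene models held 241 CPM in tumor, against 102 CPM in spleen (ratio 2.36, against 2.28 for Fbl). A Tulp4 transcript carries 690 bases that match Fbl at 99.6%, and Tulp4, a gene of a different family, was at 281, 269 and 227 CPM in tumor, against 128, 128 and 128 CPM in spleen in the count table. Of the 50-base windows of Fbl, 19.1% occurred in Tulp4, a protein-coding gene, so most of the shared windows of Fbl were not in pseudogenes alone. The summed models had a ratio of tumor to spleen above 1 for all 14 genes, and whether their counts are reads of the genes was not tested. With the counts of such models added to their genes before the fit, an alternative chosen after seeing the data, 41 of the 42 genes were higher and 0 lower, and the log2 fold change of Npm1 was 1.497 and of Fbl 1.25. Counts of Tulp4 were not added in that fit.

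**Figure D5:**
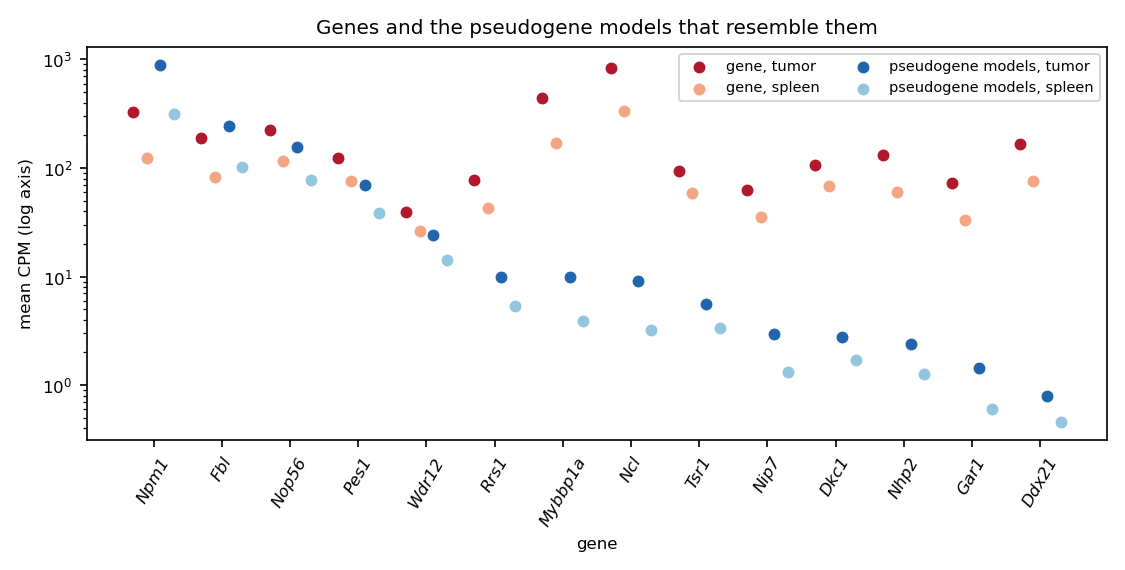
Mean CPM, on a log axis, of 14 genes and of the summed pseudogene models that resemble each of them, in tumor and in spleen (means of 3 libraries). Tumor lies above spleen for every gene and every sum of models, and for Npm1 and Fbl the models hold more counts than the gene.

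Introns and exons of 7 of the 42 genes hold 21 annotated snoRNA models, the guide RNAs that snoRNPs carry. Those inside Nop56 had the most counts: Gm23187 had 261 counts summed over tumor libraries, against 229 summed over spleen libraries, and shares 86 bases with Nop56 exons. No other model had more than 91 counts over either tissue, and no comparison was made at such counts. Exons of 17 of the 42 genes overlap an exon on the opposite strand. The longest of these overlaps were 1240 bases between Tsr1 and Srr, 598 bases between Noc2l and Samd11, and the 361 bases between Bysl and Ccnd3. Srr was at 34.4, 41.3 and 43.0 CPM in tumor, against 25.8, 26.1 and 25.6 CPM in spleen and Samd11 at 53.7, 60.8 and 62.2 CPM in tumor, against 23.1, 24.5 and 25.3 CPM in spleen, and the part of their reads in the counts of Tsr1 and Noc2l was not tested.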

How the data were processed

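The values are whole-number counts of reads per gene that the authors deposited as 1 table of the 6 libraries, and no library was left out. Build mm10 and the tools featureCounts, STAR (2.3) and bcl2fastq (2.20.0.422) are listed, per the submitters' processing notes, without order or settings; how strand and multiply mapped reads were treated is not given there. Per the labels, libraries came from low-input and stranded RNA kits and were sequenced as single reads of 50 bases. Gene symbols came from GENCODE M21: 54587 of the 55335 identifiers matched with their version, 567 without it and 181 had no symbol. Counts were tested with edgeR 4.0.16 in R 4.3.3 (TMM scaling, quasi-likelihood F-test, tumor over spleen, filterByExpr at min.count 10 and min.total.count 15). Each SE of a log2 fold change was derived as its absolute value divided by the square root of the F statistic. The spread of a gene was estimated over both tissues together. Benjamini-Hochberg adjustment ran over the 19783 genes kept, with 0.05 as the threshold. Alternatives used limma 3.58.1, DESeq2 1.42.0, other scalings, no filter, a replicate block, libraries left out and spleen libraries summed. Library totals of 35095261 to 38263483 counts were similar, and the biological coefficient of variation was 10.5% in tumor, against 3.21% in spleen. Whether each library stands for its own mouse is not labelled; the p-values therefore reflect library-to-library spread alone, which may be technical. Same-numbered tumor and spleen libraries did not deviate together (correlations -0.016, 0.029 and 0.0057), so the numbers were not used to pair them. The 42 genes and the other gene lists were chosen with earlier results of these data known. All 42 genes are given; from the other lists of the pathway, those described are genes of the polymerase lists (initiation factors included), Myc, and in each other list the 2 genes with the smallest p-values in each direction among those that passed. Rrp1, Rrp36, Mxd1, Mnt, Max, Mxd3 and Mlx were named after their values were seen. Sequence resemblance was searched with BLAST 2.17.0 in GENCODE M21 transcripts, 1 gene of the polymerase III list is counted but not reported by itself here, and promoter sequences are RefSeq's (GRCm38.p6).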

Additional observations from a re-analysis of the deposited data

How the results depend on the processing

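The count of 41 genes higher in tumor was the same with RLE scaling, upper quartile scaling, library totals, no filter, limma-voom, DESeq2, an adjusted p below 0.01, and similar pseudogenes added; it was 40 with the spleen libraries summed. Bysl was called lower, 1 gene in place of 0, with upper quartile scaling and with library totals; a cause was not tested. The median log2 fold change of 0.98 became 0.93 with upper quartile scaling, 0.95 with library totals, 0.99 with no filter, 0.97 with spleen libraries summed and 0.999 with similar pseudogenes added. Leaving out each library in turn gave medians of 0.96 to 0.98, 41 to 41 genes higher, 0 to 0 lower, 37 to 39 at least 1.5-fold higher, and 87 to 96 higher and 5 to 9 lower among the 120 other pathway genes. The summed level was 2.03-fold higher by library totals and 2.07-fold by TMM-scaled sizes. With the replicate block, 41 of the 42 genes were higher, 39 by at least 1.5-fold, and 90 of the other pathway genes were higher, against 92 without it; the numbers were not shown to pair the libraries, and the block changed no call among the 42 genes. With spleen libraries summed, 66 of the other pathway genes were higher. The median of all genes was -0.02 in the reported fit, and -0.15 over the 35231 genes tested with no filter. Over 15 alternatives, 627 of 630 single-gene results of the 42 genes kept their direction and side of the threshold, 2 (Bysl) newly passed as lower, 1 (Polr1a at 0.39, spleen libraries summed to a lone sample assumed to vary like tumor) no longer passed, and 0 reversed.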
